A study of Homo sapiens with 24 samples.

Results

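The translation initiation and elongation factors are the proteins that bring an mRNA to the ribosome, choose its start codon and move the ribosome along it. Their mRNAs were followed in HEK293, an established human embryonic kidney cell line. Members were the entries naming a single gene whose symbol begins with EIF1 to EIF6 or with EEF1 or EEF2, together with PABPC1, PABPC4, PAIP1 and PAIP2. The eIF2 kinases (symbols beginning EIF2AK), EIF4E2 and EIF4ENIF1 were left outside. The rule found 61 members among 19242 single-gene entries. Of these, 59 had a read in at least 1 library and 48 passed the filter on low counts. The 13 that did not pass were EIF1AY, EIF2D, EIF2S1, EIF2S3, EIF3CL, EIF3D, EIF3F, EIF3J, EIF4E1B, EEF1A2, EEF1E1, EEF2K and PABPC1. EEF1G and EIF4EBP3 stand only in rows that name several genes and are no members.

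One cell line overexpresses ZC3H7B (ZC3H7B-OE), a CCCH zinc finger protein that was first described as a partner of a rotavirus protein and eIF4G, and the control line carries a Flag/HA construct. Every group had the same 24 h pulse of 100 µM 4-thiouridine (s4U, a uridine analogue that cells build into new RNA) with 1 µg/mL doxycycline. A chase in 10 mM uridine followed, and poly(A) RNA was taken at 0, 2, 4 and 6 h, with 3 libraries for each line and time and 24 in all. The labels give no group without doxycycline, and do not say whether each line is 1 clone. Nor do they say that replicates were grown apart, so the p-values cover the scatter of these libraries alone, and that scatter may be technical. After alkylation s4U is read as C, so a read with T-to-C conversions counts as labelled.

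Translation of most mRNAs begins when eIF4E binds the cap, eIF4G bridges it to the poly(A)-binding protein, and the helicase eIF4A opens the leader. The small subunit arrives with eIF3, with eIF1 and eIF1A, which keep scanning accurate, and with the initiator tRNA carried by eIF2. eIF2B recharges eIF2, the 4E-BPs block eIF4E when mTOR is off, and eEF1A and eEF2 deliver aminoacyl-tRNA and translocate the ribosome during elongation. Many mRNAs of this machinery begin with a terminal oligopyrimidine (TOP) tract, a C at the cap followed by a run of C and T, which couples their translation to mTOR.

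That tract was looked for in the RefSeq promoter table of build GRCh38.p14, which held 48 of the 61 members. Members without an entry were EEF1A2, EEF1D, EIF2S2, EIF2S3L, EIF3A, EIF3CL, EIF3E, EIF3G, EIF3H, EIF3L, EIF4EBP1, PABPC1 and PABPC4. Whether these have a tract was not examined. A C at the annotated start followed by at least 4 C or T, read on the gene's strand only, was found in 12 of the 48 members (25.0%), against 5.14% of 27305 genes in the same table. Listed first are the 8 members with a tract that were also tested, to show how it varies among factors. EIF1AX and EIF4EBP2, the pair with the smallest p between the lines, follow and have none at the start. Each window runs from 10 bases before the annotated start to 20 bases from it, 5′ to 3′, and capitals mark the tract.
EEF1A1, chr6:73521013-73521042, minus strand: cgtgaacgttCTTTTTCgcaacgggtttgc
EEF2, chr19:3985444-3985473, minus strand: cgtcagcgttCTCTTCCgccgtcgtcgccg
EEF1B2, chr2:206159885-206159914, plus strand: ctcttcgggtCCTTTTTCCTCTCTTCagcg
EIF2A, chr3:150546777-150546806, plus strand: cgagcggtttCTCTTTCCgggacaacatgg
EIF3K, chr19:38619178-38619207, plus strand: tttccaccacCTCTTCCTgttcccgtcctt
EIF3M, chr11:32583821-32583850, plus strand: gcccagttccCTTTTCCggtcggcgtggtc
EIF4A2, chr3:186783567-186783596, plus strand: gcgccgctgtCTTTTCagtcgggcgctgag
EIF4B, chr12:53006446-53006475, plus strand: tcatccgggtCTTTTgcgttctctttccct
EIF1AX, chrX:20141819-20141848, minus strand: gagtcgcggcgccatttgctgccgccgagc
EIF4EBP2, chr10:70404135-70404164, plus strand: gccttcgcccgcttccggtcgtcgtcgtcg
The tract spanned 7 bases in EEF1A1 and EEF2, 16 in EEF1B2 and 5 in EIF4B. EIF2D, EIF2S3, EIF3D and EIF3F also had one but too few reads for a test. When the run could start within 5 bases of the annotated start, 19 of the 48 members had one (39.6%), against 18.8% of genes, EIF4EBP2 among them.

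Depth was 1502070 to 3676250 reads a library, of which 830574 to 1579740 were labelled, and members took 1.23% to 2.17% of the reads. Levels are counts scaled by TMM and to a common library size (CPM). They are not divided by length, so they compare libraries and not genes. ZC3H7B was 0.28 higher on the log2 scale in ZC3H7B-OE (SE 0.08, adjusted p = 0.00347), with 254 to 463 CPM against 192 to 376 CPM in control, so the lines overlapped. Among markers of HEK293 cells, LIN28B was lower in ZC3H7B-OE (log2 -0.89, SE 0.07, adjusted p = 1.32e-11), NEFM and PAX2 had at most 10 reads in either line, and NEFL was not analysed here. Markers of hepatocytes, fibroblasts and keratinocytes summed to at most 5.20 CPM in any library. The 3 leukocyte markers summed to 55.5 to 124 CPM in ZC3H7B-OE and 37.9 to 272 CPM in control, with PTPRC at 0 throughout. Their part in the results was not tested.

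The third control library at 0 h stood apart. It had a TMM factor of 0.726 and placed 10.7% of its reads in 10 entries, against 7.20% and 7.21% in the other two control libraries of that time. It had 12230 CPM of EEF1A1, with 5024 and 4732 in those libraries, and 1513 CPM of EIF1AX, with 663 and 651 there. Values without it are given beside results that rest on the control 0 h group.

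**Figure D1:**
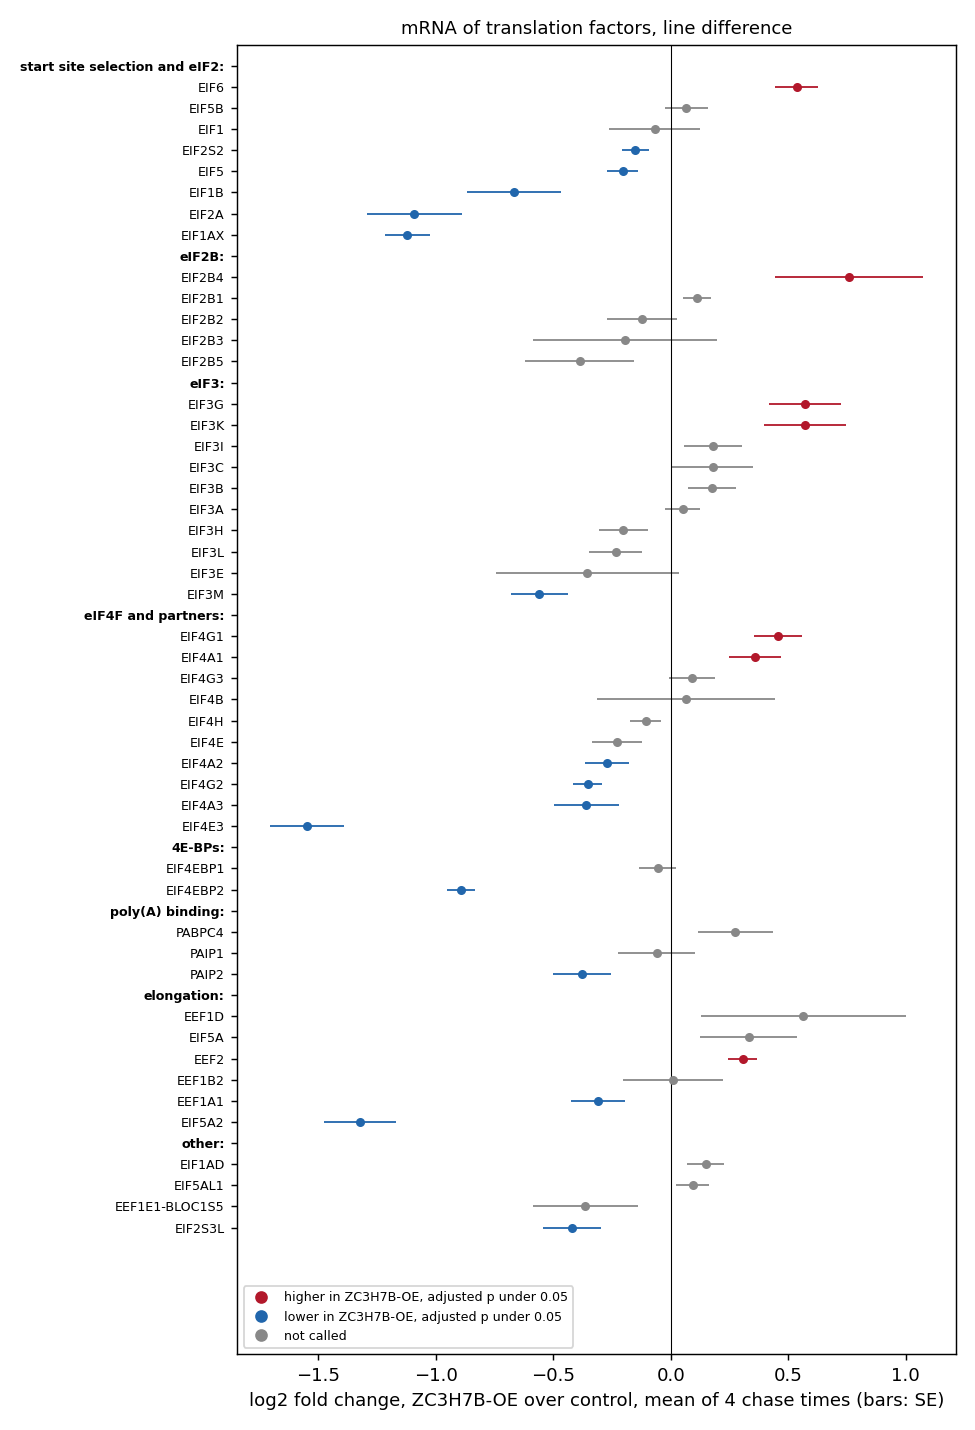
Fitted log2 fold change, ZC3H7B-OE over control, averaged over the 4 chase times, for the 48 tested translation factors grouped by role; bars are SE, and colours show the call at an adjusted p of 0.05. The 15 lower members reach further from 0 (EIF4E3 at -1.55) than the 7 higher ones (EIF2B4 at 0.76).

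Averaged over the chase, 7 translation factors were higher and 15 were lower in ZC3H7B-OE than in control, and 26 were not called (edgeR quasi-likelihood test, Benjamini-Hochberg adjusted p under 0.05). Over all 10038 entries tested, 20.4% were called higher and 25.4% lower, 45.8% in all, a share like that of the members. Their median difference was -0.09, beside 0.01 over all entries. With library size as the only scaling, 10 were higher and 11 lower, while the median of all entries was 0.08. In bulk RNA, fewer cells of a type and less RNA per cell cannot be told apart. Without the third control library at 0 h, 9 were higher and 15 lower. Of the 22 called members, 21 were called with the same sign without it, EIF2B4 was not, and EIF3I (0.33), EIF5AL1 (0.16) and EIF2B1 (0.13) were called higher. Of the 22, 17 had the sign of the mean at all 4 times and 5 at 3 of them. The same differences made the calls, so these counts are a description and lend the calls no weight.

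EIF4E3, a cap-binding relative of eIF4E, had the largest difference of any called member (log2 -1.55, SE 0.16, adjusted p = 9.97e-10). EIF5A2, the second gene for eIF5A, the hypusine-carrying factor that relieves stalled ribosomes, was lower as well (log2 -1.32, SE 0.15, adjusted p = 4.64e-08). So were EIF1AX, which encodes eIF1A (log2 -1.12, SE 0.10, adjusted p = 2.24e-10), and EIF4EBP2, a repressor of eIF4E (log2 -0.89, SE 0.06, adjusted p = 8.68e-14). In linear terms the ZC3H7B-OE level was 0.342, 0.400, 0.460 and 0.538 of the control level in that order. Leaving out the library that stood apart, their log2 differences were -1.51, -1.16, -0.997 and -0.91.

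Among the factors of start site selection and of eIF2, 1 of 8 was higher and 5 were lower. The ZC3H7B-OE libraries held 250.2, 242 and 234 CPM before the chase, 396, 340.5 and 356 after 2 h, 457, 423 and 425 after 4 h and 552, 556 and 498 after 6 h for EIF1AX. The control libraries held 663, 651 and 1513 CPM before the chase, 646, 646 and 615 after 2 h, 799, 722 and 761 after 4 h and 1056, 957 and 1032 after 6 h. The lines did not overlap at any time. The fitted log2 difference was -1.95 at 0 h (SE 0.20, adjusted p = 2.91e-08) and lay between -0.92 and -0.81 afterwards. EIF1AX was the only member whose difference changed along the chase (edgeR F test of line by time, adjusted p = 0.0343), where 1.73% of all entries did. Without the third control library at 0 h, the 0 h difference was -1.44, the test of change gave an adjusted p of 0.00748, and PAIP2 passed as well (adjusted p = 0.0417). Over 30 other settings the EIF1AX p lay between 6.59e-07 and 0.116, and it passed in 18.

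EIF2A, first described as a carrier of initiator tRNA apart from eIF2, was lower (log2 -1.09, SE 0.20, adjusted p = 5.14e-05), at 12.8 ± 8.80 CPM in ZC3H7B-OE and 24.5 ± 12.6 CPM in control (SD over the 12 libraries of a line), and its difference was -0.87 without the library that stood apart. EIF1B, a close relative of eIF1, was lower (log2 -0.67, adjusted p = 0.00776), with -0.43 when that library was left out. EIF5, the GTPase-activating protein of eIF2, and EIF2S2, its beta subunit, were lower by small amounts (log2 -0.20, adjusted p = 0.0114 and log2 -0.15, adjusted p = 0.0299). EIF6, which keeps the large subunit from joining too early, moved the other way. EIF6 stood at 163, 179 and 129 CPM before the chase, 111, 112 and 103 after 2 h, 79.5, 104 and 90.4 after 4 h and 53.5, 65.7 and 74.1 after 6 h in ZC3H7B-OE. In control it stood at 137, 110.5 and 206 CPM before the chase, 81.5, 75.4 and 72.1 after 2 h, 47.8, 47.2 and 49.8 after 4 h and 44.0, 40.9 and 38.8 after 6 h. The lines overlapped at 0 h and were apart from 2 h on. The mean difference was 0.54 (SE 0.09, adjusted p = 1.30e-05), with 0.92 at 4 h and 0.64 at 6 h, and a mean of 0.60 without the library that stood apart. EIF1 and EIF5B, the factor for subunit joining, were not called (log2 -0.07, adjusted p = 0.801 and log2 0.07, adjusted p = 0.585).

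The subunits of eIF2B, the exchange factor that the integrated stress response acts on, gave 1 call in 5. EIF2B4 was higher (log2 0.76, SE 0.31, adjusted p = 0.0479) from 184 reads in all 24 libraries, and missed the threshold without the third control library at 0 h (adjusted p = 0.0936). EIF2B1, the subunit with the most reads, had 305 ± 31.9 CPM in ZC3H7B-OE and 283 ± 30.8 CPM in control (SD, n = 12 each) and was not called (log2 0.11, adjusted p = 0.127), but was without that library (adjusted p = 0.0463).

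Of 10 eIF3 subunits tested, 2 were higher and 1 was lower. EIF3G, a subunit with an RNA recognition motif, was higher (log2 0.57, SE 0.15, adjusted p = 0.00423), and so was EIF3K (log2 0.57, SE 0.17, adjusted p = 0.00736). EIF3M was lower (log2 -0.56, SE 0.12, adjusted p = 0.000357). Without the library that stood apart the 3 values were 0.47, 0.55 and -0.45 in that order. The scaffold subunits EIF3A and EIF3B were not called (log2 0.05, adjusted p = 0.602 and log2 0.18, adjusted p = 0.155). EIF3C was higher in ZC3H7B-OE at 0 h (log2 1.12, adjusted p = 0.0205) but was not called over the mean of the times (log2 0.18, adjusted p = 0.415). Without the library that stood apart the 0 h value of EIF3C was 0.76 (adjusted p = 0.116).

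**Figure D2:**
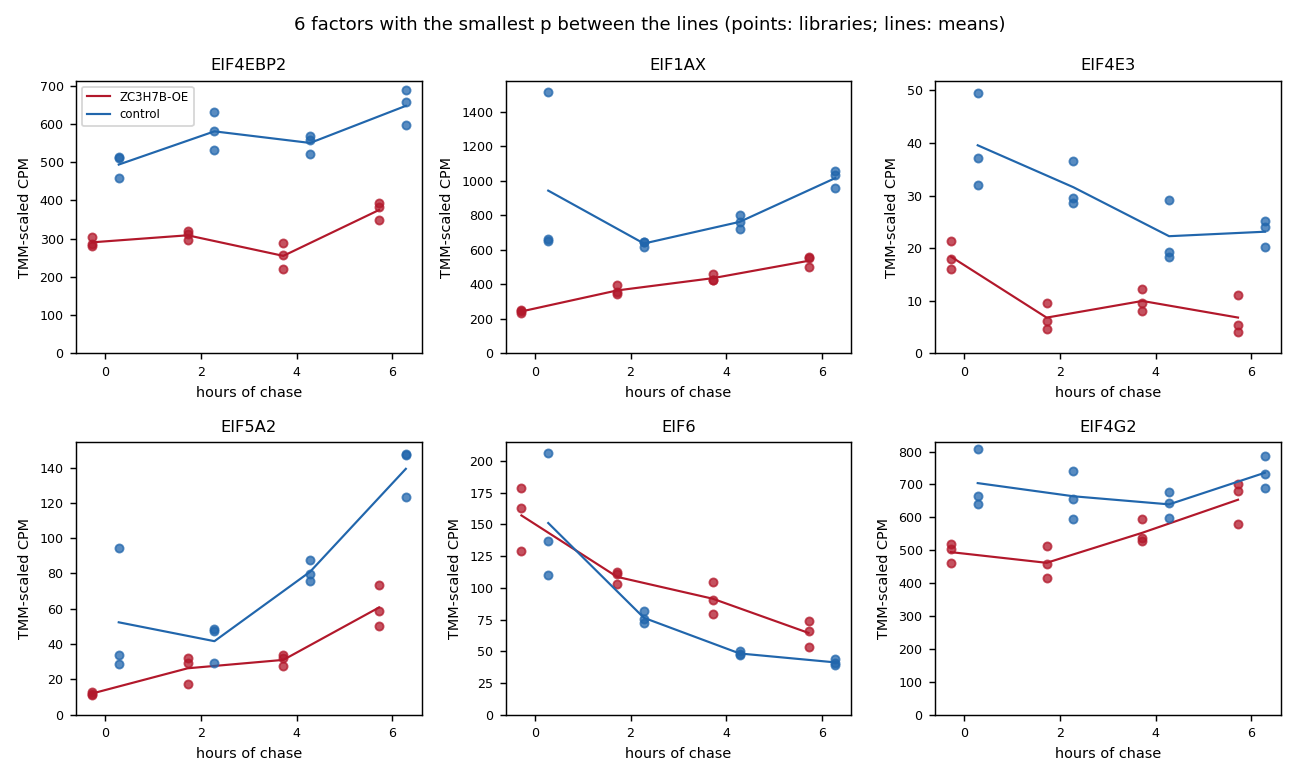
TMM-scaled CPM by hours of chase for the 6 factors with the smallest p between the lines; points are libraries (ZC3H7B-OE left, control right at each time) and lines join group means. EIF4EBP2, EIF1AX and EIF4E3 are lower in every ZC3H7B-OE library than in any control library of the same time, and control at 0 h has 1 EIF1AX value of 1513 above the other two.

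Within the cap-binding complex eIF4F and its partners, 2 of 10 were higher and 4 were lower. EIF4G1, the scaffold, was higher (log2 0.46, SE 0.10, adjusted p = 0.000474), as was EIF4A1, its helicase (log2 0.36, SE 0.11, adjusted p = 0.00786), with 0.38 and 0.43 without the third control library at 0 h. EIF4G2, also called DAP5, lacks the eIF4E-binding part of eIF4G. In ZC3H7B-OE, EIF4G2 measured 519, 504 and 459.8 CPM before the chase, 457, 511 and 417 after 2 h, 595, 528 and 536 after 4 h and 578, 681 and 701 after 6 h. Control cells gave 640.5, 663 and 808 CPM before the chase, 656, 740.0 and 596 after 2 h, 643, 599 and 676 after 4 h and 786, 688 and 732 after 6 h. ZC3H7B-OE lay below control at 0, 2 and 4 h and overlapped it at 6 h, with a mean difference of -0.35 (SE 0.06, adjusted p = 1.65e-05). EIF4G3, the other scaffold paralogue, was not called (log2 0.09, adjusted p = 0.469).

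EIF4A2, a paralogue of EIF4A1, and EIF4A3, a helicase of the exon junction complex, were lower (log2 -0.27, adjusted p = 0.0169 and log2 -0.36, adjusted p = 0.0327). EIF4E itself was not called (log2 -0.23, SE 0.11, adjusted p = 0.0757). Levels of EIF4E3 were 21.3, 15.9 and 17.9 CPM before the chase, 4.59, 9.64 and 6.10 after 2 h, 12.2, 9.62 and 8.02 after 4 h and 5.35, 11.0 and 4.02 after 6 h in ZC3H7B-OE cells. They were 37.2, 32.0 and 49.5 CPM before the chase, 28.5, 36.6 and 29.6 after 2 h, 29.2, 19.3 and 18.2 after 4 h and 24.0, 20.2 and 25.1 after 6 h in control cells. Every ZC3H7B-OE library was below every control library of its time. These EIF4E3 levels rest on 1067 reads in all.

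The 2 tested 4E-BPs gave different calls. The ZC3H7B-OE libraries held 286, 305 and 281 CPM before the chase, 296, 311 and 320.0 after 2 h, 289, 257 and 219 after 4 h and 395, 349 and 382 after 6 h for EIF4EBP2. The control libraries held 513, 511 and 458 CPM before the chase, 630.4, 531 and 582 after 2 h, 559.5, 569.7 and 523 after 4 h and 597, 657 and 689 after 6 h. No ZC3H7B-OE library reached the lowest control library at any time, and the difference stayed between -1.11 and -0.77. Its paralogue EIF4EBP1 was not called (log2 -0.05, SE 0.08, adjusted p = 0.602). EIF4EBP1 stood at 642, 733 and 728 CPM before the chase, 582, 508 and 466 after 2 h, 444, 532 and 539 after 4 h and 332, 321 and 329 after 6 h in ZC3H7B-OE. In control it stood at 797, 778 and 1389 CPM before the chase, 561, 644 and 496 after 2 h, 381, 358 and 449.5 after 4 h and 343, 317 and 289 after 6 h. ZC3H7B-OE lay below control at 0 h and overlapped it later, though at 4 h 2 of its 3 libraries were above every control library. At 0 h EIF4EBP1 was called lower (log2 -0.49, adjusted p = 0.0174), and without the third control library it was not (-0.17, adjusted p = 0.346). Its line-by-time test gave the second smallest p of the members (adjusted p = 0.124).

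Among genes that act at the poly(A) tail, PAIP2, which displaces the poly(A)-binding protein, was lower (log2 -0.38, SE 0.12, adjusted p = 0.0164), and stood at -0.21 without the third control library at 0 h (adjusted p = 0.000205). PAIP1, which supports that protein, and PABPC4 were not called (log2 -0.06, adjusted p = 0.793 and log2 0.28, adjusted p = 0.164). PABPC1 had 19 reads in all libraries and was not tested.

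Of 6 elongation factors, 1 was higher and 2 were lower. In ZC3H7B-OE, EEF2 measured 4145, 4163 and 4567 CPM before the chase, 2799, 3011 and 2472 after 2 h, 3074, 3177 and 3034 after 4 h and 2405, 2492 and 2893 after 6 h. Control cells gave 3387, 3316 and 2486 CPM before the chase, 3029, 3033 and 2393 after 2 h, 2323, 2048 and 2651 after 4 h and 2176, 1928 and 1940 after 6 h. ZC3H7B-OE was above control at 0, 4 and 6 h and overlapped it at 2 h, with a mean difference of 0.31 (SE 0.06, adjusted p = 0.000159). EEF1A1 was lower (log2 -0.31, SE 0.12, adjusted p = 0.0332), at -0.17 without the third control library at 0 h (adjusted p = 0.00312). Its paralogue EEF1A2 had 47 reads and was not tested. Levels of EIF5A2 were 11.8, 13.0 and 11.0 CPM before the chase, 32.1, 17.1 and 29.5 after 2 h, 27.7, 31.8 and 33.5 after 4 h and 73.4, 58.7 and 50.03 after 6 h in ZC3H7B-OE cells. They were 28.9, 33.6 and 94.5 CPM before the chase, 48.4, 29.1 and 47.4 after 2 h, 87.7, 75.8 and 79.5 after 4 h and 147, 123 and 147 after 6 h in control cells. The EIF5A2 values of the lines overlapped at 2 h only.

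Near-identical copies limit 3 families. EIF5AL1, an intronless copy of EIF5A, took 47340 reads while EIF5A took 420, EIF2S3L took 1782 while EIF2S3 took 51, and EIF3C took 977 while EIF3CL took 55. How the authors' counting divided such reads is not given in the sources used here, so values of these genes are uncertain. EIF2S3L was lower (log2 -0.42, SE 0.12, adjusted p = 0.00525), and EIF5AL1 and EIF5A were not called (log2 0.09, adjusted p = 0.286 and log2 0.33, adjusted p = 0.197). EEF1E1-BLOC1S5 is a readthrough entry and was not called (log2 -0.36, adjusted p = 0.185).

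The calls were unevenly spread over the chase. At 0 h 4 members were higher and 15 lower, with 11.7% and 19.5% of all entries. At 2 h edgeR called 0 higher and 4 lower (2.19% and 7.27%), with 11 members in either direction at an unadjusted p under 0.05, 5 calls by DESeq2 and 4 by limma-voom. At 4 h the counts were 2 and 4 (6.85% and 10.8%), and at 6 h 3 and 4 (6.52% and 9.25%). Without the third control library at 0 h, the members called numbered 9, 10, 14 and 14 through the chase times. The counts over all entries in that setting are not given here, so these numbers show no trait of the members. Calls over all entries moved too. With all libraries they numbered 3136, 950, 1776 and 1583 through the chase times. Leaving out any 1 library gave 2131 to 3600 at 0 h and 575 to 1670 at 2 h. At 4 h the range was 1035 to 2839, and at 6 h 891 to 2669. Among the calls lost at 0 h were EEF1A1, PAIP2, EIF4E and EIF1B, and those that stayed past the threshold included EIF1AX, EIF4EBP2, EIF5A2 and EIF4G1.

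Other genes of translation control, outside the members, gave 7 higher and 10 lower of 28 tested, with a median of -0.14. Over all entries, 20.4% were higher and 25.4% lower, with a median of 0.01. PDCD4, an inhibitor of eIF4A, was lower (log2 -1.17, SE 0.11, adjusted p = 1.33e-10), and so was DENR, which acts in recycling of small subunits (log2 -0.80, SE 0.08, adjusted p = 2.19e-10). The termination factors ETF1 and GSPT1 were lower (log2 -0.54, adjusted p = 3.32e-08 and log2 -0.57, adjusted p = 1.53e-09), as was EIF2AK2, the kinase PKR (log2 -0.72, adjusted p = 4.49e-08). DOHH and DHPS, which make the hypusine of eIF5A, were higher (log2 0.75, adjusted p = 4.03e-06 and log2 0.47, adjusted p = 0.00320).

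**Figure D3:**
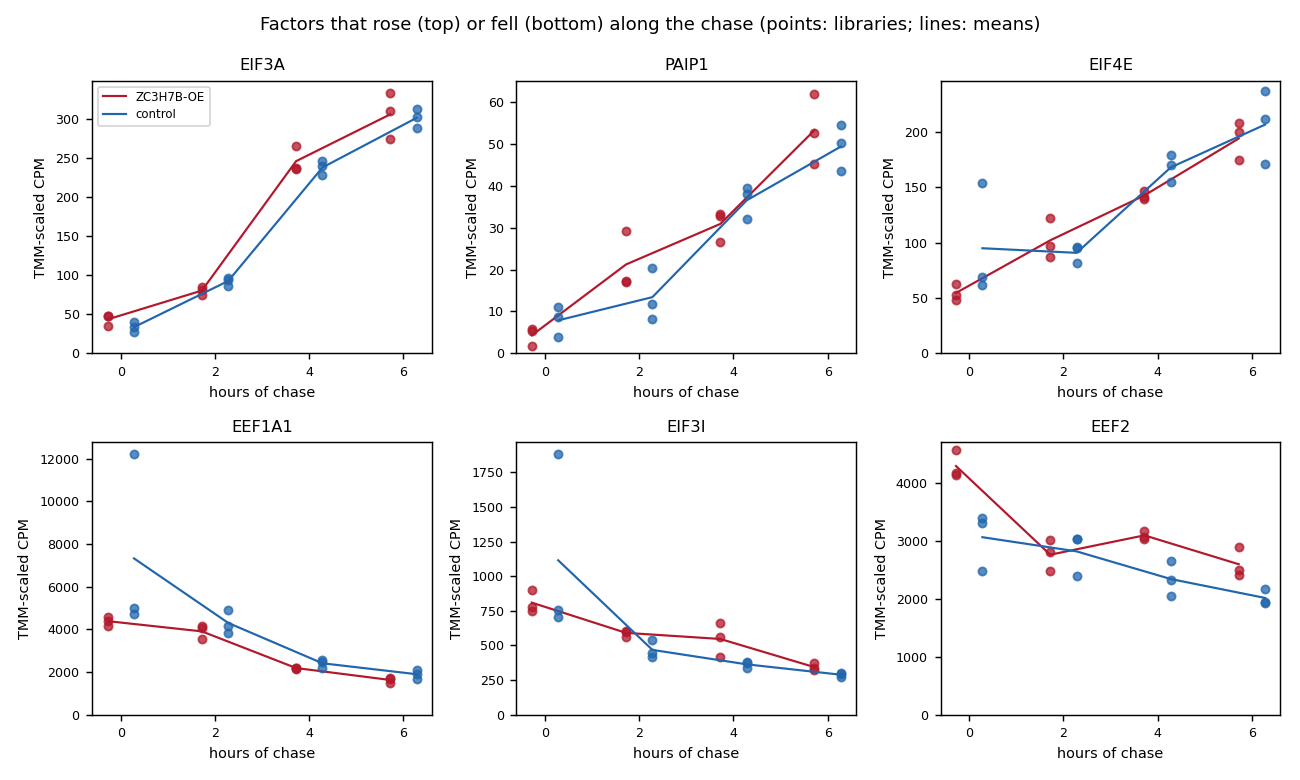
TMM-scaled CPM by hours of chase for 3 factors that rose (EIF3A, PAIP1, EIF4E) and 3 that fell (EEF1A1, EIF3I, EEF2); points are libraries (ZC3H7B-OE left, control right) and lines join group means. EIF3A ends between 274 and 333 CPM at 6 h in both lines, and EEF1A1 between 1461 and 2114 CPM.

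Along the chase the factors moved apart in both lines. Between 6 h and 0 h, 16 members rose and 11 fell in ZC3H7B-OE (32.8% and 30.6% of all entries), and 11 rose and 11 fell in control (30.7% and 29.9%). All 11 that rose in control rose in ZC3H7B-OE, where they were 68.8% of the 16, and 9 fell in both (81.8% of each list). Over all entries, 81.4% of those that rose in ZC3H7B-OE and 87.1% of those that rose in control did so in both, and for those that fell the shares were 77.0% and 78.9%. Without the third control library at 0 h, 15 members rose and 13 fell in control. The labels give no chase without the s4U pulse.

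EIF3A, the scaffold of eIF3, had the largest rise in control. EIF3A stood at 47.9, 34.8 and 47.4 CPM before the chase, 81.5, 84.6 and 74.8 after 2 h, 265, 236 and 237 after 4 h and 274, 311 and 333 after 6 h in ZC3H7B-OE. In control it stood at 40.2, 33.6 and 26.6 CPM before the chase, 86.6, 96.9 and 94.2 after 2 h, 239, 228 and 246 after 4 h and 313, 303 and 289 after 6 h. Levels at 4 and 6 h were above all levels at 0 and 2 h in both lines. The difference, 6 h over 0 h, was 2.83 in ZC3H7B-OE (SE 0.15, adjusted p = 9.73e-17) and 3.14 in control (SE 0.16, adjusted p = 3.02e-17), or 3.04 in control without the third library at 0 h. In ZC3H7B-OE, PAIP1 measured 1.77, 5.31 and 5.78 CPM before the chase, 29.3, 17.1 and 17.3 after 2 h, 33.3, 26.6 and 32.8 after 4 h and 45.2, 52.8 and 62.1 after 6 h. Control cells gave 3.92, 8.67 and 11.0 CPM before the chase, 11.7, 20.5 and 8.07 after 2 h, 38.0, 32.1 and 39.5 after 4 h and 54.5, 43.6 and 50.2 after 6 h. Every 6 h value of PAIP1 was above every 0 h value of its line. The PAIP1 groups at 0 h held 24 reads in ZC3H7B-OE and 36 in control. PAIP1 rose by 3.60 in ZC3H7B-OE (SE 0.35, adjusted p = 1.23e-10) and by 2.73 in control (SE 0.33, adjusted p = 1.61e-08), or 3.00 without that library.

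EIF4E rose by 1.84 in ZC3H7B-OE (adjusted p = 1.44e-08) and 1.16 in control (adjusted p = 2.15e-05). EIF5B rose by 1.68 in ZC3H7B-OE (adjusted p = 1.89e-09) and 1.19 in control (adjusted p = 1.69e-06), and EIF4G3 by 1.45 in ZC3H7B-OE (adjusted p = 5.51e-08) and 1.76 in control (adjusted p = 3.43e-09). EIF5A2 rose by 2.34 in ZC3H7B-OE (adjusted p = 6.87e-07) and 1.49 in control (adjusted p = 5.44e-05), and EIF1B by 1.72 in ZC3H7B-OE (adjusted p = 0.00101) and 1.14 in control (adjusted p = 0.0122). Without the third control library at 0 h, the control values of these 5 in the same order were 1.67, 1.27, 1.60, 2.17 and 2.12. EIF1AX was called higher in ZC3H7B-OE (log2 1.15, adjusted p = 9.96e-06) and not in control (log2 0.11, adjusted p = 0.620), but without that library it was called in control too (log2 0.64, adjusted p = 2.95e-07). EIF2A had 2.33 in ZC3H7B-OE (adjusted p = 3.37e-05) and 0.50 in control (adjusted p = 0.236), and without that library it was likewise called in control (log2 1.41, adjusted p = 0.000150).

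EEF1A1, which encodes eEF1A, and EIF3I, a WD-repeat subunit of eIF3, had the largest falls in control with all libraries. Without the third library at 0 h, EIF6 fell further than either in control, by 1.57. Levels of EEF1A1 were 4179, 4569 and 4409 CPM before the chase, 4141, 4046 and 3531 after 2 h, 2156, 2209 and 2193 after 4 h and 1461, 1742 and 1675 after 6 h in ZC3H7B-OE cells. They were 5024, 4732 and 12230 CPM before the chase, 4145, 4924 and 3834 after 2 h, 2479, 2177 and 2571 after 4 h and 2114, 1672 and 1902 after 6 h in control cells. The lines were apart at 0 h and overlapped later, and in both lines every value at 4 and 6 h was below every value at 0 and 2 h. EEF1A1 fell by 1.43 in ZC3H7B-OE (adjusted p = 2.16e-05) and by 1.95 in control (adjusted p = 4.73e-07), or by 1.35 in control without the third library at 0 h. The ZC3H7B-OE libraries held 751, 899.7 and 777 CPM before the chase, 608, 601 and 564 after 2 h, 419, 663 and 558 after 4 h and 320.1, 373 and 336 after 6 h for EIF3I. The control libraries held 703, 758 and 1886 CPM before the chase, 415, 542 and 447 after 2 h, 373, 335 and 383 after 4 h and 302, 295 and 268 after 6 h. In both lines every 6 h value of EIF3I was below every 0 h value. EIF3I fell by 1.24 in ZC3H7B-OE (adjusted p = 0.000249) and by 1.95 in control (adjusted p = 1.47e-06), or by 1.33 without that library.

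EEF2 fell by 0.72 in ZC3H7B-OE (adjusted p = 8.38e-06) and by 0.60 in control (adjusted p = 0.000112). EIF6 fell by 1.29 in ZC3H7B-OE (adjusted p = 2.13e-07) and by 1.86 in control (adjusted p = 3.18e-10), and EIF4EBP1 by 1.10 in ZC3H7B-OE (adjusted p = 4.30e-07) and by 1.64 in control (adjusted p = 1.94e-10). Without the third library at 0 h, EEF2 fell by 0.72 and EIF4EBP1 by 1.30 in control. EIF3L and EIF4E3, called lower in control, were not called without the third library at 0 h (log2 -0.06 and -0.56). The 8 tested members with a TOP tract had 2 higher and 2 lower in ZC3H7B-OE (median 0.21), and 0 higher and 3 lower in control (median -0.24), the 3 being EEF1A1, EEF2 and EIF3K. Without that library EIF2A and EIF4A2, both with a tract, were called higher in control (1.41 and 0.48). The 30 tested members with a promoter entry and no tract had 13 higher and 6 lower in ZC3H7B-OE (median 0.20), and 10 higher and 4 lower in control (median 0.22). Between the lines, 2 of the 8 were higher and 4 were lower (median -0.13). Of the 30 without a tract, 4 were higher and 9 lower (median -0.09), and of all entries 20.4% were higher and 25.4% lower. A part of the tract in these calls was not tested.

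The number of labelled reads fell along the chase for most factors. Labelled reads, scaled to all reads of the library, fell in 33 of 40 tested members in ZC3H7B-OE (72.7% of 8490 entries) and in 32 in control (75.6%). They rose for EIF3A and PAIP1 in ZC3H7B-OE (2.12% of entries) and for EIF3A in control (1.97%). Scaled to the labelled reads alone, a setting that takes out the loss shared by all mRNAs, 3 fell in ZC3H7B-OE and 5 in control. The share of all entries that fell in that setting is not given here, so these counts show no trait of the members. Steepest in control, among members with at least 50 labelled reads at 0 h, were EIF1AD, which holds an eIF1A-like domain, EIF6 and EIF3I. Their log2 slopes per h were -0.42, -0.42 and -0.40 (adjusted p = 2.60e-09, 1.04e-11 and 4.42e-11), which correspond to halving in 2.38, 2.41 and 2.52 h. Without the third control library at 0 h the slopes were -0.46, -0.37 and -0.31, and the order changed. EIF3K (-0.41) and EIF3B (-0.38) were then steeper than EIF6 and EIF3I, and EIF2B2 (-0.34) and PABPC4 (-0.32) were steeper than EIF3I. In ZC3H7B-OE the slopes of EIF1AD, EIF6 and EIF3I were -0.48, -0.30 and -0.27. A slope also holds the change of a gene's level. Between 6 h and 0 h in control, all reads changed by a log2 of -1.86 for EIF6 and -1.95 for EIF3I. Without the third library at 0 h these were -1.57 and -1.33. Pooled labelled shares in control after 6 h were 9.87% for EIF1AD, 55.1% for EIF6 and 45.7% for EIF3I. Of entries with at least 50 reads at both times, 93.4%, 7.90% and 18.25% had a higher share. The slopes therefore do not rank turnover.

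At the other end, labelled reads of EIF3A rose by a log2 of 0.17 per h in ZC3H7B-OE (adjusted p = 0.00216) and 0.21 in control (adjusted p = 0.000276). EIF5A2 had -0.02 in ZC3H7B-OE and -0.05 in control, and EIF1B had 0.03 and -0.08, none of them called (adjusted p = 0.780, 0.398, 0.692 and 0.261). EEF1A1 had -0.28 in ZC3H7B-OE and -0.33 in control, and EEF2 had -0.18 and -0.19. With the third control library at 0 h left out, the control slopes were 0.18 for EIF3A, 0.06 for EIF5A2, 0.05 for EIF1B, -0.27 for EEF1A1 and -0.21 for EEF2, and the signs of EIF5A2 and EIF1B, neither called, turned.

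The slopes were then compared between the lines, and edgeR called 0 members and 0% of the 8490 entries. At an unadjusted p under 0.05 there were 5 members, EIF4EBP1 (difference 0.13 per h, adjusted p = 0.800), EIF3I, EIF6, EIF3M and EIF2A, and 477 entries. Without the third control library at 0 h, the differences of these 5 were 0.07, 0.03, 0.07, 0.08 and 0.09 in that order. Their SE were 0.04, 0.04, 0.05, 0.07 and 0.11, and none was called. In data simulated from the mean levels and depths of these libraries, 10% of slope differences of 0.2 per h were recovered. The spread between libraries was set there to the same value for every gene (dispersion 0.05). The size that the real data could detect was therefore not measured, and the lack of calls does not show equal loss.

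**Figure D4:**
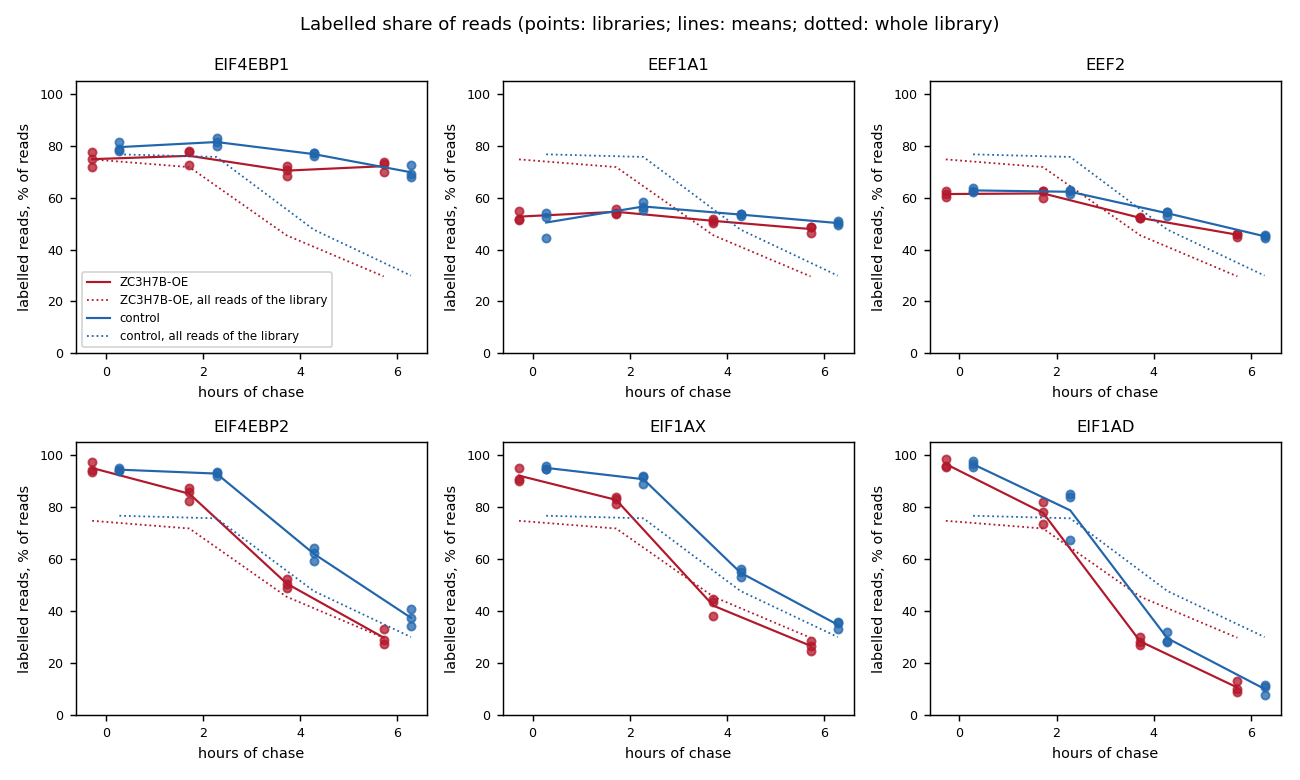
Labelled reads as a percentage of a gene's reads by hours of chase for 6 factors; points are libraries (ZC3H7B-OE left, control right), solid lines join group means and dotted lines give the share over whole libraries. EIF4EBP1, EEF1A1 and EEF2 change less than the whole library while EIF1AD ends near 10%.

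The share of a gene's reads that is labelled does not depend on library scaling. Over whole libraries it averaged 74.8%, 71.8%, 45.5% and 29.7% through the chase times in ZC3H7B-OE, and 76.7%, 75.7%, 47.7% and 29.9% in control. Summed over the members it averaged 67.3%, 66.7%, 49.2% and 36.9% in ZC3H7B-OE, and 68.4%, 70.1%, 52.3% and 38.4% in control. These sums hold 174793 reads of EEF1A1 and 160164 of EEF2. Gene by gene, among entries with at least 50 reads at both times, the members' median share in ZC3H7B-OE was 30.2% after 6 h and 84.8% before the chase (36 members), beside 27.9% and 86.6% over all entries. In control it was 32.2% and 82.5% (38 members), beside 29.1% and 88.5%.

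EIF4EBP1 had one of the highest labelled shares after 6 h. Its share was 69.8, 73.0 and 73.6% after 6 h and 71.9, 77.6 and 75.1% before the chase in the ZC3H7B-OE libraries. In control it was 67.8, 69.2 and 72.4% after 6 h and 78.9, 78.0 and 81.6% before it. The times overlapped in ZC3H7B-OE and did not in control. Among entries with at least 50 reads at both times, 1.78% in ZC3H7B-OE and 1.16% in control had a higher share at 6 h.

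EEF1A1 was labelled in 48.8, 46.4 and 48.6% of reads after 6 h and 55.0, 51.6 and 51.4% before the chase in ZC3H7B-OE. The control libraries had 49.6, 50.1 and 50.9% after 6 h and 54.0, 52.6 and 44.6% before it, the last being the library that stood apart. Over pooled reads its share changed by -4.79 percentage points in ZC3H7B-OE and 0.482 in control, where the median entry changed by -53.5 and -55.7 points. The control pool at 0 h includes the library that stood apart. Both other control libraries at 0 h had a higher EEF1A1 share than any control library at 6 h, so the sign in control rests on that library. EEF2 had 45.7% ± 0.621 after 6 h and 61.4% ± 1.23 before the chase in ZC3H7B-OE, and 45.1% ± 0.477 and 62.8% ± 0.919 in control (SD, n = 3). EIF6 had 59.2% ± 3.52 after 6 h in ZC3H7B-OE and 55.1% ± 7.81 in control.

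Other factors were mostly unlabelled by 6 h. EIF1AD had 10.4% ± 2.08 after 6 h in ZC3H7B-OE and 9.91% ± 2.00 in control, with 96.7% ± 1.55 and 96.6% ± 1.13 before the chase. EIF5B had 15.7% ± 3.66 in ZC3H7B-OE and 16.6% ± 3.59 in control after 6 h. EIF3A had 23.0% ± 0.880 in ZC3H7B-OE and 25.6% ± 1.83 in control at that time (SD, n = 3). EIF3G was hardly labelled at any time: 28 of 6940 reads carried the label, 0.403% (exact Clopper-Pearson 95% interval 0.268% to 0.583%, counting error only). Of 6141 entries with at least 1000 reads, 58 had a share as low or lower, and their median was 50.6%.

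Between the lines, the odds that a read was labelled were compared at each time by edgeR, with a term for each library. At 0 h edgeR called 0 of 39 members (1.15% of 7835 entries), with 7 at an unadjusted p under 0.05. At 2 h 7 were lower in ZC3H7B-OE (6.87% of entries), at 4 h 5 were lower (4.28%) and at 6 h 3 (3.55%). The median over all entries was itself below 0, at -0.17, -0.29, -0.16 and -0.03 through the chase times. EIF1AX and EIF4EBP2 were called at 2, 4 and 6 h. For EIF1AX the log2 odds ratios were -1.04, -0.74 and -0.56 (adjusted p = 9.35e-06, 9.72e-05 and 0.00211). For EIF4EBP2 they were -1.21, -0.67 and -0.50 (adjusted p = 1.01e-05, 0.00275 and 0.0176).

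The labelled share of EIF1AX at 2 h was 81.4, 84.0 and 83.1% in ZC3H7B-OE, against 91.9, 91.6 and 89.0% in control. At 6 h it was 24.6, 26.6 and 28.4%, against 35.6, 33.1 and 35.3%. The lines were apart at both times. Before the chase the EIF1AX share was 91.0, 90.2 and 95.3% in ZC3H7B-OE, against 95.8, 94.92 and 94.85% in control. The lines overlapped there and the odds were not called, but the pooled shares were 92.0% in ZC3H7B-OE and 95.2% in control. Whether the gap arose during the chase was not tested. EIF4EBP2 had 28.6, 27.4 and 33.2% at 6 h in ZC3H7B-OE, against 37.4, 34.2 and 40.6% in control, and EIF4G2 had 26.5, 26.7 and 27.3%, against 37.1, 33.4 and 36.2%. EIF4G2 was called at 4 h (log2 -0.44, adjusted p = 0.0159) and 6 h (log2 -0.59, adjusted p = 0.000391), and EIF4EBP1 at 2 h (log2 -0.46, adjusted p = 0.0380) and 4 h (log2 -0.48, adjusted p = 0.0273). EIF1AX, EIF4EBP2 and EIF4G2 were also lower in level over the mean of the times, and EIF4EBP1 was not called there.

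**Figure D5:**
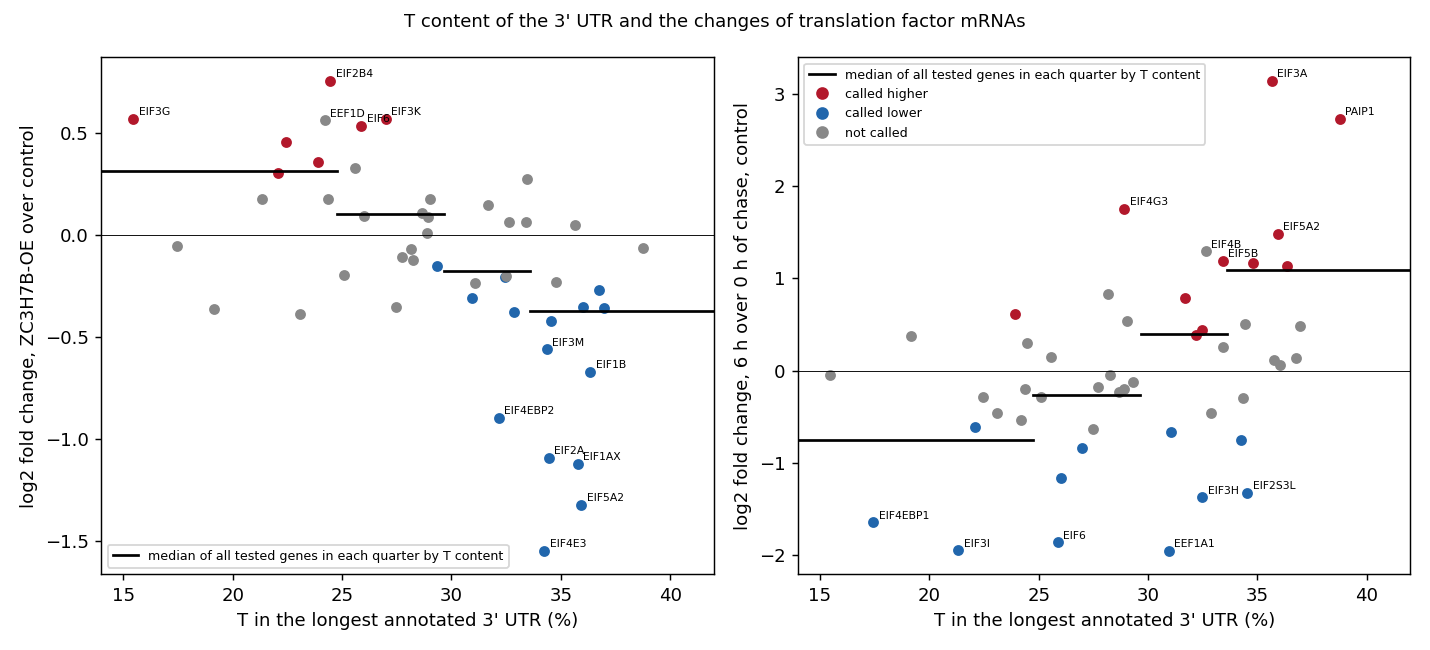
Fitted log2 fold change of the 48 tested factors against the T content of the longest annotated 3′ UTR, for ZC3H7B-OE over control (left) and for 6 h over 0 h in control (right). Black lines are medians of all tested genes in 4 equal groups by T content, drawn as far as the axis reaches, which run from 0.31 down to -0.37 on the left and from -0.75 up to 1.09 on the right.

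The differences of the factors ran with the base composition of their 3′ UTRs, as did those of all genes. T content, chosen as a measure after values were seen, was taken from the longest 3′ UTR of GENCODE release 29 on GRCh38, which all 61 members had. The region the authors counted is not given in the sources used here. Across the 48 tested members, the line difference had a Spearman correlation of -0.59 with T content, beside -0.53 across 9508 genes. These are correlations across genes that share the same libraries and are not independent, so they are descriptions. For the difference, 6 h over 0 h, the values were 0.52 across the members and 0.59 across all genes in ZC3H7B-OE, and 0.43 and 0.46 in control.

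Among the genes with the most T, over 33.6%, the 13 members had a median line difference of -0.42, beside -0.37 for all genes. Among those with the least, up to 24.8%, the 11 members had 0.31, as all genes did. EIF1AX, EIF5A2 and EIF4E3, all lower in ZC3H7B-OE, had 35.8%, 35.9% and 34.2% T, and PAIP1 and EIF3A, with the largest rises in control, had 38.8% and 35.7%. EIF4EBP1 and EIF3G lay at the other end, at 17.4% and 15.5%. The part of base composition in the results was not tested.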

How the data were processed

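The tables of whole-number read counts per gene were used, all reads and labelled reads with T-to-C conversions, as deposited by the authors. Libraries were made from poly(A) RNA with a directional kit, per the labels' protocols. fastp and build GRCh37 are named per the submitters' processing notes. The aligner, conversion caller, counted region and strand setting are each not given in the sources used. The tables hold 450 rows naming several genes, with 2.30% to 3.69% of the reads, which stayed in library sizes.

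Counts were fitted over all 8 groups of 3 libraries by the edgeR 4.0.16 robust quasi-likelihood test in R 4.3.3, with TMM scaling and filterByExpr (minimum count 10). P-values were adjusted by Benjamini-Hochberg over all entries tested. Line differences were averaged over 4 times and taken at each, chases compared 6 h with 0 h, and label loss was a slope over hours scaled to all reads. DESeq2 1.42.0 and limma-voom (limma 3.58.1) were alternatives. Simulated data had the same spread between libraries set for every gene. In them, 93.5% of 200 changes of 1 on the log2 scale between the lines were recovered over 9614 genes, and 5.08% of calls were false.

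Every member called between the lines was to be named. Library values are given for the 6 called with the smallest p, the pair with the smallest line-by-time p, the pairs with the largest rise and fall in control, and the pair with the most reads. The members and lists were chosen with earlier results of these data known. Levels of EIF1AY and 1 marker of HEK293 cells are not reported here.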

Additional observations from a re-analysis of the deposited data

Results flagged for a closer look

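The line difference of EIF1AX changed along the chase (edgeR F test, adjusted p = 0.0343, or 0.00748 without the third control library at 0 h). EIF1AX was lower in ZC3H7B-OE than in control at every time, and the size of the difference is what varied.

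EIF3C had fitted differences of opposite sign at 2 times, with libraries of the lines that did not overlap: log2 1.12 at 0 h (adjusted p = 0.0205) and -0.68 at 4 h, ZC3H7B-OE over control. The 4 h difference was not called (adjusted p = 0.154), nor was the line-by-time test (adjusted p = 0.148). The 0 h value was 0.76 (adjusted p = 0.116) without the third control library, and EIF3C has a near-identical copy, EIF3CL.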

How the results depend on the processing

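Of 22 members called between the lines, 12 stayed past the threshold under every alternative run and 10 did not: EEF1A1, EIF1B, EIF2B4, EIF2S2, EIF3K, EIF4A1, EIF4A2, EIF4A3, EIF5 and PAIP2. Over 123 single-member results and 3817 values, 3582 kept direction and call, 232 lost the call and 3 reversed. The reversals came with 6 h against 2 h in ZC3H7B-OE, chosen after seeing the data: EIF1 at -1.35 (adjusted p = 0.00216), EIF4E3 at 0.025 (0.963) and EIF4G1 at 0.085 (0.761), while 7 members were lower. With 6 h left out, 9 members were lower between the lines. Fits to the 6 libraries of a time called 4, 7, 17 and 17 members at 0, 2, 4 and 6 h, and 2 and 8 for label odds at 2 and 4 h. With no filter, 11 were called at 6 h and 1 for label odds at 0 h. The line-by-time test called 0 with DESeq2 size factors, 8 with no filter, 2 with DESeq2 and 0 with limma-voom. Label fell in 3 members in ZC3H7B-OE and 5 in control when labelled reads set the scaling, and a TOP tract within 5 bases was found in 19. Shares over all entries under these settings are not given here, so the member counts show no trait of the members. The causes were not tested beyond the constructions named.

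Leaving out 1 library gave 6 to 9 higher and 13 to 17 lower between the lines, and 9 to 24 called at 0 h, 4 to 10 at 2 h, 4 to 14 at 4 h and 4 to 14 at 6 h. The 9, 10 and both values of 14 came without control 0 h replicate 3, the 24 without control 0 h replicate 1, and the 4 at 6 h without ZC3H7B-OE 6 h replicate 3. Ranges of the calls over all entries at each time are given above. Over the mean of the times they were 1835 to 2286 higher and 2413 to 2658 lower, and for line by time 48 to 709. For label odds over all entries they were 33 to 110, 246 to 946, 183 to 475 and 410 to 779 through the chase times. Line by time gave 0 to 6: 6 without control 0 h replicate 2, 4 without replicate 1, and 0 without any 1 ZC3H7B-OE library at 0 h, ZC3H7B-OE 4 h replicate 3, or any 1 control library at 4 or 6 h. Label odds gave 0 to 1 at 0 h, 4 to 7 at 2 h, 2 to 5 at 4 h and 2 to 4 at 6 h, with the low values at 2 and 4 h from leaving out libraries of that time.

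The main fits did not treat same-numbered libraries as pairs. Deviations of such libraries correlated between -0.117 and 0.214, the highest at 2 h for replicate 3. These correlations cannot show whether the libraries were handled as pairs. With the replicate block, 6 members were higher and 15 lower between the lines, 1 was called by line by time, and 2 single-member calls were lost, EIF2B4 (0.75, adjusted p = 0.0587) and EEF2 at 6 h (0.37, adjusted p = 0.0526).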
